A study of Arabidopsis thaliana with 9 samples.

Results

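The transcriptome of dark-grown wild-type Arabidopsis thaliana was read from 3 libraries of Col-0 seedlings, out of a set of 9 libraries over 3 genotypes. The libraries were chosen by their genotype label alone, and no measured value entered the choice. All 3 libraries share the genotype Col-0, an unmutated accession, the age of 3 days and the same treatment. The labels' protocols describe stratification of the seeds at 4 °C without light for 3 days, after which they were exposed to white light for 3 h, returned to darkness for 21 h, given far-red light at 2000 µmol m-2 and then held in darkness for 2 further days. Total RNA of whole seedlings was extracted with a Sigma kit and made into TruSeq libraries. The labels do not say whether the 3 replicates were separate sowings, so the spread between them may be technical. The cop1-4 and spaQ libraries of the same set were not compared here.

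A seedling that germinates in darkness follows skotomorphogenesis: the hypocotyl elongates, the apical hook stays closed, and the cotyledons stay small, with etioplasts in place of chloroplasts. It lives on oil and protein stored in the seed, which peroxisomes and the cytosol turn into sugar. In darkness the COP1/SPA ubiquitin ligase marks light-promoting factors such as HY5 for degradation, PIF factors repress light-responsive genes, and protochlorophyllide accumulates bound to its reductase, which needs light to act.

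The 3 libraries held 32300852, 27651857 and 28247653 counts in genes for replicates 1, 2 and 3. Levels are given as CPM, the count divided by the library's sum and multiplied by 1000000, as mean ± SD over n = 3 libraries or as the values of replicates 1, 2 and 3 in that order. Ratios between genes are of CPM per kb of coding length, and a CPM value alone ranks genes by counts, not per length. In 34 of 38 gene lists the member highest by CPM was also the highest per kb. A total of 3 counts, the floor used here, corresponded to 0.0929, 0.108 and 0.106 CPM in replicates 1, 2 and 3 and to 0.0340 CPM over the 3 libraries. Levels and floors cover counting error only.

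Of 27444 protein-coding genes, 18538 had a mean of 1 CPM or more, which is 67.5% of them. Another 4591 had some reads below that level, and 4315, or 15.7%, had 0 reads in all 3 libraries, which allows a level of up to 0.0340 CPM. The median protein-coding gene stood at 7.21 CPM, and the median of those at 1 CPM or more was 18.9 CPM. The counts were concentrated in few genes: 2154 protein-coding genes at 100 CPM or more, 7.85% of them, held 60.7% of all counts, and the 84 genes at 1000 CPM or more held 16.0%. The gene with most reads took 0.957%, 0.844% and 0.935% of the counts in replicates 1, 2 and 3. The 100 genes with most reads took 17.3%, 17.02% and 17.9%, so the concentration was alike in the 3 libraries. Long noncoding genes contributed little: 146 of 3480 reached 1 CPM, 2308 had no read, and all of them together held 0.108% of the counts.

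**Figure D1:**
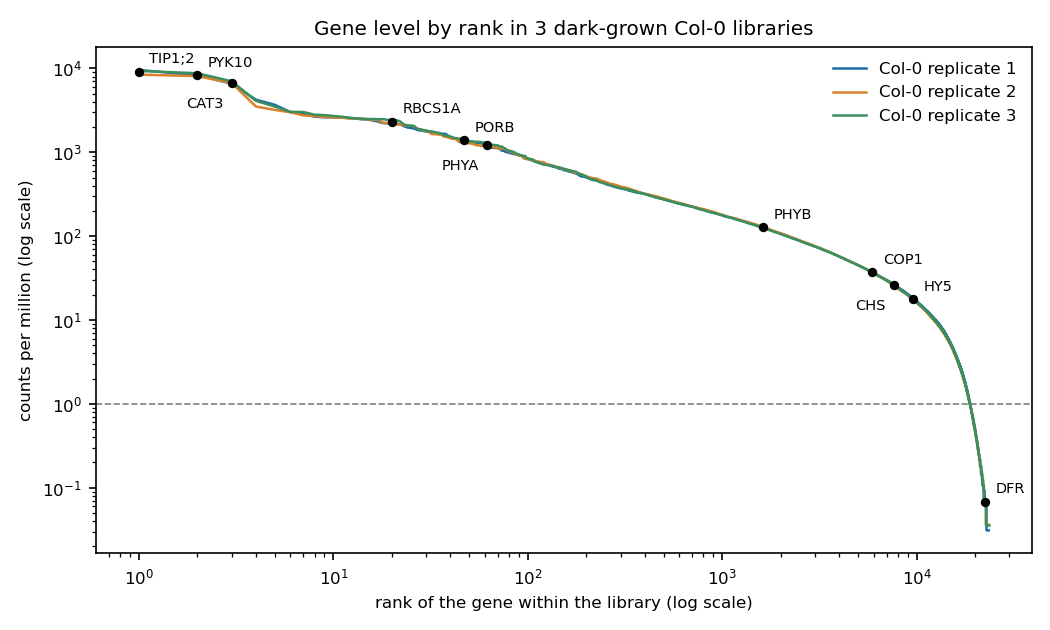
CPM (log axis) against the rank of the gene within each library (log axis) for the 3 Col-0 libraries, as 1 line each, with points at the mean CPM of named genes and a dashed line at 1 CPM. The 3 lines nearly coincide from TIP1;2 with a mean of 9118 CPM downward, and the 84 protein-coding genes at 1000 CPM or more hold 16.0% of the counts.

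The label of whole dark-grown seedlings was set against marker genes of organs and tissues. Over all protein-coding genes, 67.5% had a mean of 1 CPM or more and 15.7% had no read. Of 20 root markers 16, or 80%, reached 1 CPM, with the endodermal protein CASP1 at 367, 317 and 360.2 CPM. All 10 vascular markers passed 1 CPM, among them the phloem sucrose carrier SUC2 at 111, 110.3 and 113 CPM. Of 13 epidermal markers 10, or 76.9%, did, led by the wax enzyme CER6 at 656 ± 28.0 CPM. Markers of organs that a seedling lacks were near 0. Of 14 pollen and sperm genes 3 passed 1 CPM and 8 had no read, with a summed level of 10.6, 10.09 and 9.66 CPM. Of 15 floral organ identity genes 2 passed and 5 had no read, and AP2, which is also active outside flowers, made most of the sum of 27.8 ± 1.83 CPM. Of 17 shoot meristem and leaf genes 12, or 70.6%, passed 1 CPM, near the share of all genes, with a median of 13.1 CPM. Among them the meristem gene STM had 5.64 ± 0.477 CPM and WUS, which marks the organizing centre, had 0 reads.

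Aquaporins, the membrane channels that let water pass into the vacuole and the cell, were the largest of 38 gene lists by summed level. Their 35 members summed to 33458, 29827 and 33516 CPM, or 3.23% of all counts, and 29 of them stood at 1 CPM or more, against 67.5% of all protein-coding genes. The tonoplast channel TIP1;2 was the gene with most counts in the table, at 9572, 8438 and 9346 CPM. It also ranked 1 per length, at 11966 CPM per kb, and stood 5.24 ± 0.209 times (SD, n = 3) above its close relative TIP1;1 per kb of coding length. TIP1;2 is annotated under the symbol TIP2 at chr3:9722443-9723904 on the minus strand of TAIR10.1. The tonoplast channel TIP2;1 followed at 3463 ± 243 CPM. The plasma membrane channels PIP1;2, PIP1;3, PIP2;7 and PIP2;1 had 2766 ± 147, 2636 ± 151, 2404 ± 144 and 2398 ± 141 CPM, and per kb 3053, 3061, 2852 and 2775 CPM. PIP2;2 and PIP2;3, which neighbour each other on chromosome 2, differed more: PIP2;2 had 1319, 1192 and 1384 CPM and PIP2;3 had 107, 98.4 and 106 CPM, a ratio of 10.9 ± 0.456 per kb. At the other end of the family, the seed channels TIP3;1 and TIP3;2 stood at 9.26 ± 0.922 and 7.22 ± 0.264 CPM, while TIP1;3, TIP5;1 and NIP4;1, known from pollen, had 0, 1 and 1 reads over the 3 libraries.

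**Figure D2:**
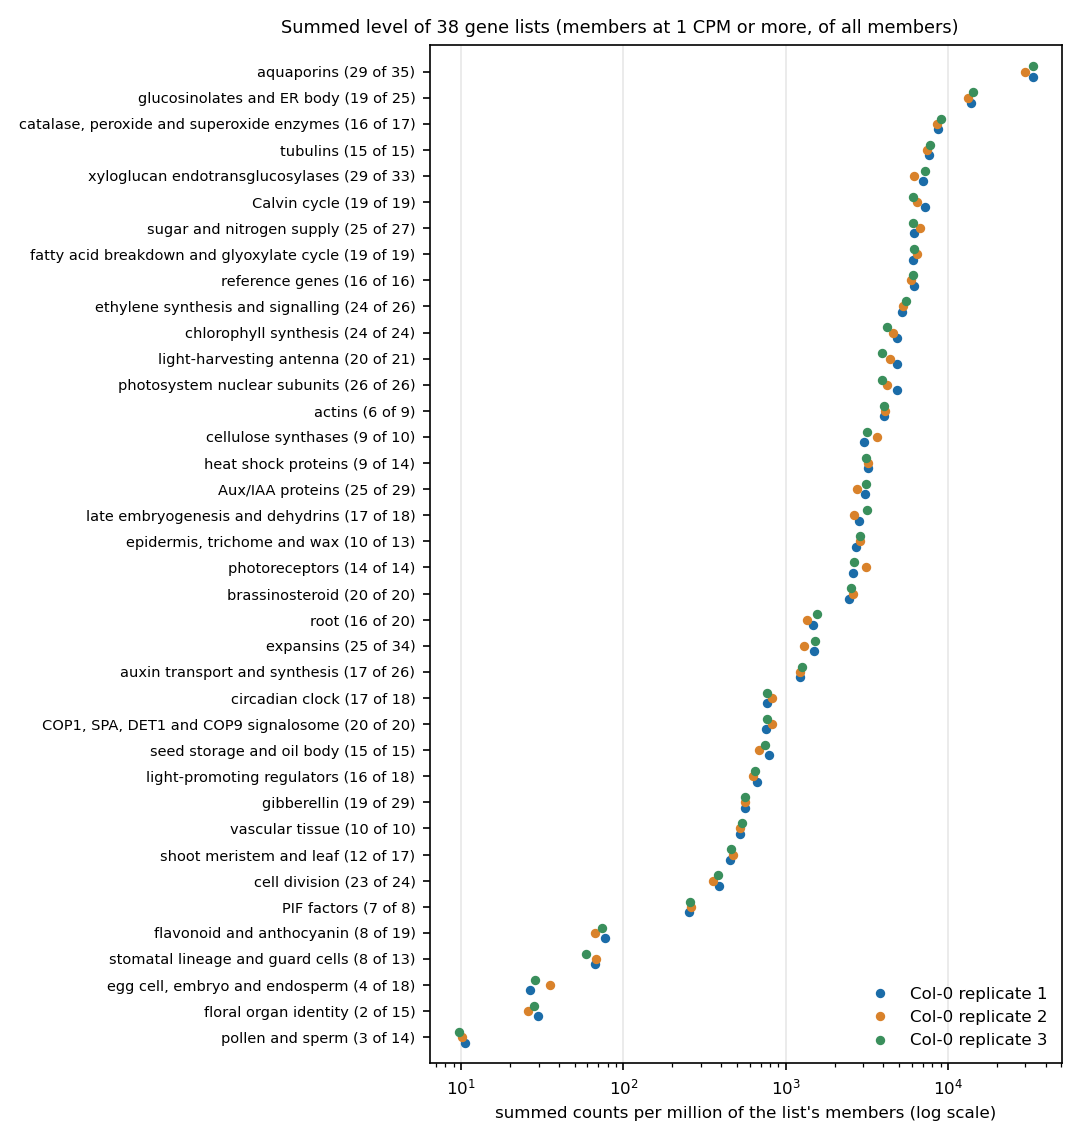
Summed CPM (log axis) of the members of each of 38 gene lists in each Col-0 library, with the number of members at 1 CPM or more beside the name. Aquaporins lie at the top near 32267 CPM and the pollen and sperm list at the bottom near 10.104 CPM, and the 3 libraries of a list lie close together.

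The ER body, a cigar-shaped store of beta-glucosidase in the seedling epidermis of Brassicaceae, accounted for the gene that ranked 2. Its beta-glucosidase PYK10 had 8302, 8094 and 8759.9 CPM, or 5324 CPM per kb. PBP1, a jacalin-type lectin that binds PYK10 after tissue damage, had 3013, 2642 and 3022 CPM, and NAI2, a protein needed to form ER bodies, had 917, 1017 and 973 CPM. These 3 genes made up most of the sum of the glucosinolate and ER body list, 13754 ± 570.3 CPM, in which 19 of 25 genes passed 1 CPM. Of the regulators and first enzymes of glucosinolate synthesis, CYP79B2, which starts the indolic branch from tryptophan, had 23.7, 23.1 and 24.4 CPM and the indolic regulator MYB34 had 31.2 ± 2.31 CPM. CYP79F1, which starts the branch from chain-elongated methionine, had 2 reads in replicate 2 and 0 in the other libraries, and its regulator MYB28 stood at 1.25 ± 0.222 CPM.

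PYK10 lies at chr3:2840477-2843781 on the minus strand of TAIR10.1, and the 150 bases before its annotated start, chr3:2843782-2843931, are shown because PYK10 is the main enzyme of an organelle particular to these plants and ranked 3 per length. Capitals mark TATAAA on the coding strand, searched as those letters alone.
PYK10: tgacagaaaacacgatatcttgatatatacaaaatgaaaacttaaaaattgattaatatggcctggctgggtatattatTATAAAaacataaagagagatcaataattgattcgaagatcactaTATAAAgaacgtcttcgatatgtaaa
The word occurs 2 times, and the last base of the occurrence nearer the gene lies 21 bases before the start. TATAAA was found within the 60 bases before the start in 12.7% of all protein-coding genes, and the share did not follow the level: it was 13.7% of genes with no read, 11.05% of genes between 10 and 100 CPM and 13.1% of genes at 1000 CPM or more. CACGTG, the G-box core that PIF and HY5 proteins bind, was searched in 250 bases before the start and found in 6.49% of all genes. It was found in 3.08% of genes with no read, 7.83% of genes between 10 and 100 CPM and 5.95% of genes at 1000 CPM or more.

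Peroxisomal and reserve metabolism was abundant. CAT3, a catalase that destroys hydrogen peroxide, had 6572, 6686 and 7023 CPM and ranked 3 by counts. The related CAT2, known as the leaf photorespiratory catalase, had 357 ± 15.4 CPM and CAT1 had 26.3 ± 1.61 CPM, and CAT3 stood 16.95 ± 1.35 times above CAT2 per kb. All 19 genes of fatty acid breakdown and the glyoxylate cycle passed 1 CPM and 14 passed 100 CPM, with a sum of 6077, 6476 and 6205 CPM. Isocitrate lyase (ICL) led them at 2322, 2434 and 2339.7 CPM. Malate synthase (MLS), the other enzyme particular to that cycle, had 165, 140.0 and 175 CPM, so ICL exceeded it 14.6 ± 2.08 times per kb in levels of RNA. PCK1, which begins the conversion of the resulting acids into sugar, had 1205 ± 70.2 CPM, and the acyl-CoA oxidase ACX1 had 341 ± 21.2 CPM.

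RNA of seed proteins was still present in all 3 libraries. All 15 seed storage and oil body genes passed 1 CPM, against 67.5% of all protein-coding genes. Of them 2, the cruciferins CRU1 at 235 ± 19.6 CPM and CRU3 at 205 ± 9.70 CPM, passed 100 CPM, against 7.85% of all. The oil body protein OLEO1 had 21.8, 16.6 and 19.2 CPM, and the embryo regulator ABI3 had 20.4, 27.9 and 21.6 CPM. Dehydrins, hydrophilic proteins of water stress and cold, were high in part: ERD14 had 1286, 1117 and 1359 CPM and COR47 had 1126, 1106 and 1351 CPM. In the sugar and nitrogen supply list, the dark-inducible DIN10 had 1303, 1532 and 1336 CPM, glutamate dehydrogenase GDH2 had 673, 669 and 667 CPM and asparagine synthetase ASN1 had 362, 417 and 367 CPM. Over that list, 25 of 27 genes passed 1 CPM and 16 passed 100 CPM.

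Cell wall genes were prominent among the genes with most counts. Xyloglucan endotransglucosylases, which cut and rejoin the hemicellulose between cellulose fibrils, had 29 of 33 members at 1 CPM or more. XTH4 led at 2391, 2147 and 2436 CPM, followed by XTH15 at 854 ± 64.2 CPM and XTH24 at 785 ± 73.4 CPM, and per kb these came to 2609, 982 and 969 CPM, while XTH1 had 1 read and XTH29 had 3. The cellulose synthases separated by the wall they build. CESA1, CESA3 and CESA6, the primary wall subunits, had 1024 ± 115, 1029.6 ± 65.5 and 711 ± 98.4 CPM, and CESA3 and CESA1 stood at a ratio of 1.02 ± 0.0495 per kb. The secondary wall subunits CESA4, CESA7 and CESA8 had 64.7 ± 1.99, 48.9 ± 3.06 and 34.5 ± 2.67 CPM, and CESA1 exceeded CESA4 15.8 ± 1.31 times per kb. CESA1, CESA3 and CESA6 each lay above CESA4, CESA7 and CESA8 in every library. All 3 primary wall subunits were highest in replicate 2, as were most genes with long exons, described further on.

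Expansins, which loosen walls without cutting them, were lower and more divided than xyloglucan endotransglucosylases, with list medians of 9.80 and 33.3 CPM. Of 34 members 25, or 73.5%, passed 1 CPM, against 67.5% of all protein-coding genes. Of the same members 4 passed 100 CPM, against 7.85% of all, and 8 had no read, against 15.7% of all. EXPA3 led at 350.1, 304 and 349 CPM, followed by EXPA9 at 218 ± 28.1, EXPA11 at 209 ± 22.4 and EXPA8 at 183 ± 16.9 CPM. Per kb, EXPA3, EXPA9, EXPA11 and EXPA8 came to 424, 281, 276 and 240.3 CPM. EXPA21 to EXPA26 form a cluster at chr5:15726243-15740605 in which 5 of 6 genes had no read, and EXPA21 had 6 reads over the 3 libraries. Within the cluster, 45.5% to 100% of a gene's 50-base words occur at no other place in the genome. How reads that fit more than 1 copy were counted is not given, so the levels of the less unique copies are uncertain.

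Extensins are hydroxyproline-rich glycoproteins of the wall. The word extensin stands in 56 product names, of which 27 belong to a family named after the pollen allergen Ole e 1. Of the other 29 genes, 24 passed 1 CPM, or 82.8% against 67.5% of all protein-coding genes, and 13 passed 100 CPM, or 44.8% against 7.85% of all. Their sums were 10270.2, 12324 and 13765 CPM, lowest in replicate 1 and highest in replicate 3. The extensin AT2G43150 had 1919, 2698 and 2487 CPM and the proline-rich wall protein PRP4 had 2157, 2534 and 2654 CPM, with the same replicate lowest in both. Cytoskeletal genes were steadier. All 15 tubulins passed 1 CPM and 14 passed 100 CPM, led by TUB4 at 1133, 1096 and 1157 CPM and TUA6 at 1045, 1011 and 1049 CPM. Of 9 actins, the vegetative ACT2, ACT8 and ACT7 had 1791 ± 31.5, 1410.0 ± 36.2 and 729.9 ± 43.0 CPM, and the pollen actin ACT12 had no read.

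**Figure D3:**
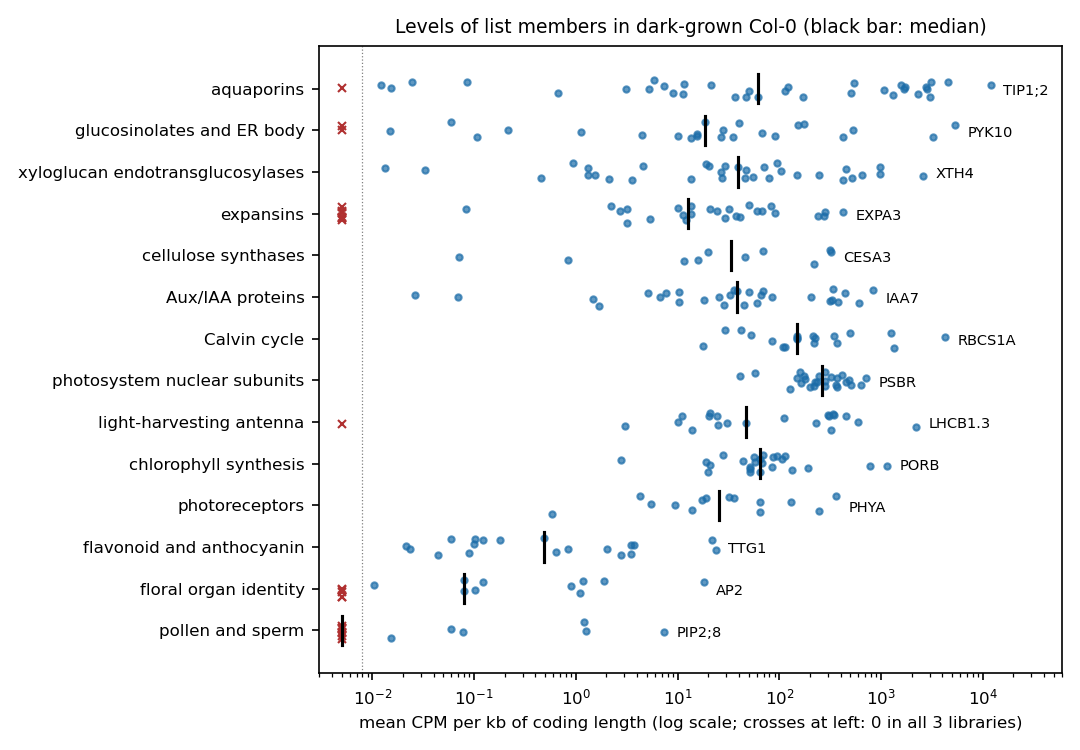
Mean CPM per kb of coding length (log axis) of each member of 14 gene lists in Col-0, with the highest member named, a black bar at the list's median and crosses for members with 0 reads in all 3 libraries. Aquaporins reach from 0 to 11966 CPM per kb, photosystem subunits from 40.6 to 714 CPM per kb, and the median flavonoid gene lies below 1 CPM per kb.

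Photosynthesis genes were read in darkness, unevenly within families. All 26 nuclear photosystem subunits, all 19 Calvin cycle genes and 20 of 21 light-harvesting genes passed 1 CPM, with 19, 14 and 9 above 100 CPM. The small subunit of Rubisco was represented mostly by RBCS1A at 2603, 2245 and 2092 CPM, which stood 3.19 ± 0.111 times above RBCS3B and 37.96 ± 2.61 times above RBCS1B per kb. Of the paired genes for the manganese-stabilizing protein of photosystem II, PSBO1 had 488 ± 34.1 CPM and PSBO2 had 57.2 ± 5.79 CPM, a ratio of 8.52 ± 0.271 per kb. Plastocyanin, the copper protein that feeds electrons to photosystem I, was mainly PETE2 at 256 ± 34.9 CPM, with PETE1 at 25.4 ± 3.97 CPM, a ratio of 12.6 ± 0.930 per kb. The Calvin cycle linker CP12-1 had 204, 185 and 169 CPM against 8.51, 6.65 and 6.02 CPM for CP12-2, a ratio of 28.1 ± 2.48 per kb.

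A wide split lay among the genes of the main antenna protein LHCB1, which binds most of the chlorophyll of photosystem II. CAB1 (LHCB1.3) had 1952, 1798 and 1566 CPM, CAB3 (LHCB1.2) had 40.5, 42.1 and 31.5 CPM, and CAB2 (LHCB1.1) had 14.6, 9.55 and 9.38 CPM. The 3 genes stand side by side on chromosome 1 with coding sequences of 804 bases each. LHCB1.4 on chromosome 2 had 10.7, 8.21 and 5.52 CPM, and LHCB1.5, whose exons lie wholly inside another annotated gene, had no read. The levels of CAB1 lay 46.9 ± 3.72 times above CAB3 and 163 ± 27.4 times above CAB2 per kb, with no overlap in any library.

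The first 90 coding bases of the 3 neighbouring genes are shown because the difference in level rests on reads that must be told apart by sequence. This stretch was picked as the 90 bases with most differing positions, so the rest of the coding sequence differs less. Capitals mark the 9 positions at which the 3 genes are not all the same. CAB1 lies on the plus strand at chr1:10478071-10478160, CAB2 on the minus strand at chr1:10475803-10475892 and CAB3 on the minus strand at chr1:10473157-10473246, all in TAIR10.1.
CAB1: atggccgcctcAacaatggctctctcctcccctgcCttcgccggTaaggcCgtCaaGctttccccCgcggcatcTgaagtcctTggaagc
CAB2: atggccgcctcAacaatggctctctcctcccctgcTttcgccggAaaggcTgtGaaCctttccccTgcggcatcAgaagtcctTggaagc
CAB3: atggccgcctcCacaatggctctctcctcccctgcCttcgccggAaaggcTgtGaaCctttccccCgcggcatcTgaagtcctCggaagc
Over the whole coding sequence 47 positions differed. CAB1 and CAB2 were 96.1% identical with 31 differences, CAB1 and CAB3 96.4% with 29, and CAB2 and CAB3 95.6% with 35. How the counting treated reads that fit more than 1 of these genes is not given in the sources used here, so the values of CAB2 and CAB3 are uncertain.

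Chlorophyll synthesis was fully represented, with all 24 genes at 1 CPM or more and 11 at 100 CPM or more. Protochlorophyllide oxidoreductase, the enzyme that waits for light in etioplasts, was the most abundant step per kb. PORB had 1509.6, 1345 and 1297 CPM and PORA had 1009, 945 and 904 CPM, a ratio of 1.47 ± 0.0395 per kb. PORC, the form known from light-grown leaves, had 36.6, 31.97 and 32.1 CPM, and PORA exceeded it 28.1 ± 1.03 times per kb. The magnesium chelatase subunit CHLH had 411, 555 and 358 CPM, while GUN4, which activates that chelatase, was the lowest member at 2.21 ± 0.254 CPM. GUN4 shares 73.0% of its exon bases with another gene, so its level is uncertain.

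The photoreceptors differed widely in level, and all 14 passed 1 CPM. Their coding sequences are long, and the phytochromes, like other long genes, were highest in replicate 2. Phytochrome A, the far-red receptor that accumulates in darkness, had 1111, 1428 and 1127 CPM and held 43.6% of the summed level of the list. Phytochrome B had 118, 147 and 116 CPM, and the ratio of PHYA to PHYB per kb was 9.82, 10.14 and 10.12 in replicates 1, 2 and 3. PHYC, PHYE and PHYD followed at 58.3 ± 9.60, 31.2 ± 3.03 and 19.0 ± 1.65 CPM, or 17.5, 9.33 and 5.45 CPM per kb. Among blue-light receptors, the phototropin PHOT1 had 686, 788 and 714 CPM, 7.69 ± 0.847 times PHOT2 per kb. Cryptochrome CRY2 had 228, 245 and 243 CPM against 128, 149 and 124 CPM for CRY1, a ratio of 2.00 ± 0.172 per kb. The UV-B receptor UVR8 had 84.7 ± 2.98 CPM, and FKF1, which times flowering, was the lowest with 1.49, 1.08 and 0.708 CPM.

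Regulators of the light response were moderate to low in level. All 20 genes of the COP1, SPA, DET1 and COP9 signalosome list passed 1 CPM, with a summed level of 778 ± 34.2 CPM. COP1 had 35.1, 40.6 and 34.7 CPM, and its partners SPA2, SPA1, SPA3 and SPA4 had 59.4 ± 5.52, 36.5 ± 3.26, 24.0 ± 1.58 and 13.5 ± 1.37 CPM. Per kb these came to 18.16 for COP1 and to 19.1, 11.8, 9.46 and 5.68 for the SPA genes, in the same order. CUL4, the scaffold on which these ligases assemble, was the highest at 136 ± 8.51 CPM and 57.3 CPM per kb. Of the PIF factors PIF3 led at 100.2, 105 and 102 CPM, 2.50 ± 0.134 times PIF1 per kb, and PIF7 was lowest at 0.490 ± 0.0687 CPM. The promoting factor HY5 had 18.8, 17.8 and 16.7 CPM and its homologue HYH had 6.63, 4.56 and 3.79 CPM. The B-box protein BBX21 had 243, 218 and 245 CPM, HFR1 had 64.2 ± 4.43 CPM and LAF1 had 0.506 ± 0.186 CPM. Per kb, BBX21 and HFR1 came to 237 and 73.1 CPM, against 32.7 CPM for HY5. RNA levels do not report the protein, which for HY5 and its relatives is known to be removed in darkness.

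Flavonoid and anthocyanin synthesis, which makes sunscreen pigments in light, was low in level. Of 19 genes 8 passed 1 CPM, or 42.1%, against 67.5% of all protein-coding genes, no member was without a read, and the list summed to 72.3 ± 5.42 CPM. CHS, the entry enzyme, had 30.6, 22.6 and 25.2 CPM and CHI had 2.78 ± 0.227 CPM. The later enzymes were at or near the floor: F3H, almost wholly overlapped by another gene, had 8, 2 and 0 reads, DFR had 2, 1 and 3, and LDOX had 0, 2 and 2. TTG1, a WD40 regulator with roles beyond pigments, had 24.4 ± 2.12 CPM, and the regulators TT8 and PAP1 had 0.138 ± 0.179 and 0.628 ± 0.127 CPM.

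Hormone genes were mostly detected. The ethylene signal carrier EIN2 had 552, 759 and 566 CPM. The synthase ACS5, known for its part in the dark-grown form, had 50.8, 49.7 and 57.9 CPM, or 37.4 CPM per kb, and ACS1 had 0.379 ± 0.0923 CPM, or 0.258 CPM per kb. All 20 brassinosteroid genes passed 1 CPM, with the synthesis enzyme DWF1 at 662, 667 and 686 CPM and the receptor BRI1 at 447, 549 and 456 CPM. Of 29 Aux/IAA repressors 25 passed, led by IAA7 at 631, 568 and 648 CPM. The auxin carriers AUX1 and PIN3 had 261 ± 5.28 and 245 ± 7.75 CPM. Of the gibberellin genes 19 of 29 stood at 1 CPM or more, or 65.5% against 67.5% of all, and only the DELLA repressor RGA passed 100 CPM, at 168, 166 and 165 CPM. The auxin synthesis and transport list had 17 of 26 at 1 CPM or more, near the share of all genes.

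Clock genes of opposite phase were present together. LHY and CCA1, which peak near dawn in light cycles, had 99.3 ± 5.20 and 45.7 ± 3.73 CPM, and TOC1, which peaks near dusk, had 81.1 ± 6.81 CPM. PRR9 was the lowest of 18 clock genes at 0.888 ± 0.121 CPM. Of 24 cell division genes 23, or 95.8%, passed 1 CPM, against 67.5% of all protein-coding genes. None of them passed 100 CPM, against 7.85% of all, and CYCB1;1, a mitotic cyclin, had 2.82, 3.00 and 3.40 CPM. Of 14 heat shock genes 9, or 64.3%, passed 1 CPM, near the share of all genes. Of these 14, 3 passed 100 CPM and 1 had no read, against 15.7% of all genes with no read. The constitutive chaperone HSC70-1 had 2603, 2584 and 2489.9 CPM, HSP101 had 22.7 ± 3.33 CPM and the plastid HSP21 had no read.

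Other genes among the highest by counts or per length had varied roles. The lipid transfer protein LTP2 had 4230.0, 3510.3 and 4100.2 CPM and ranked 2 per length at 11056 CPM per kb. The plasma membrane proton pump HA2 had 2471, 3002 and 2478 CPM, and the methionine synthase ATMS1 had 2675 ± 103 CPM. PATL1, a membrane-trafficking protein of the cell plate, had 2426 ± 175 CPM. Of the 20 genes with most counts, 12 were also among the 20 highest per length. Short genes entered by length: GASA4, a gibberellin-responsive secreted peptide, had 5020.1 CPM per kb, and the arabinogalactan peptide AGP12 had 4496 CPM per kb. AT2G01021, with 468, 609 and 396 CPM and 4812 CPM per kb, is uncertain because none of its 50-base words is found at only 1 place in the genome.

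Ribosomal protein genes were nearly all read. Of 298 genes named as ribosomal proteins 267 passed 1 CPM and 14 had no read, with a median of 48.4 CPM and sums of 23325, 18707 and 20658 CPM. Replicate 1 was highest and replicate 2 lowest. The group held 2.09% of the counts, against 3.23% in the 35 aquaporins.

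Upstream sequence of the 3 ribosomal protein genes with most counts is shown because a short word was found before the start more often in this group than in all genes. Capitals mark TGGGCC or its reverse complement GGCCCA, the site II word, and AAACCCTA on either strand, the telo-box. Each run is the 150 bases before the annotated start in TAIR10.1: RP1 at chr1:16266403-16266552 on the plus strand, AT5G20290 at chr5:6853107-6853256 on the minus strand and emb2386 at chr1:609535-609684 on the minus strand.
RP1: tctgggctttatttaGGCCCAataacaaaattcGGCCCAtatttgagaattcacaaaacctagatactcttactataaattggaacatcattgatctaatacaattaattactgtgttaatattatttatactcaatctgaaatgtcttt
AT5G20290: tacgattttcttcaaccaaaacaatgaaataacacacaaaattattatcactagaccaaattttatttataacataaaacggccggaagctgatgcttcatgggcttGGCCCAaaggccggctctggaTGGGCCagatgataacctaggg
emb2386: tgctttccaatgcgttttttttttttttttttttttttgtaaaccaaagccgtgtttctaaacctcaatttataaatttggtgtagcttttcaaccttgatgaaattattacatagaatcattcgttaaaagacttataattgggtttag
RP1 and AT5G20290 hold the site II word 2 times each, and emb2386 holds neither word in the bases shown. Levels were 382 CPM for RP1, 361 CPM for AT5G20290 and 324 CPM for emb2386. In 250 bases before the start, on either strand, TGGGCC was found in 139 of the 298 ribosomal protein genes, or 46.6%, against 13.7% of all protein-coding genes. AAACCCTA was found in 50, or 16.8%, against 4.49% of all. By level alone, TGGGCC was found in 5.93% of genes with no read, 17.9% of genes between 10 and 100 CPM and 8.33% of genes at 1000 CPM or more. AAACCCTA ran the other way by level, with 8.64% of genes with no read and 3.28% of genes between 10 and 100 CPM. A match is a run of letters and not a known site of binding.

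Families of small secreted proteins and F-box proteins had large shares of members with no read, and together held 16.8% of the 4315 such genes. Of 81 genes named ECA1, relatives of an egg-cell peptide, 76 had no read and none reached 1 CPM, against 15.7% of all protein-coding genes with no read. Of 220 defensin-like and similar cysteine-rich peptides 171 had no read and 13 reached 1 CPM, although LCR69 stood at 208 CPM. Plant thionins had 42 of 46 without a read, self-incompatibility S1 proteins, related to a poppy pollen-rejection protein, had 58 of 67, and cysteine-rich DUF26 secretory proteins had 28 of 29. F-box proteins, the variable parts of ubiquitin ligases, had 349 of 652 without a read, or 53.5%, and so made 8.09% of all such genes. Of 2929 genes named as uncharacterized or hypothetical 1032 had no read, or 35.2% against 15.7% of all. They held 23.9% of the genes with no read.

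Families were also grouped by the letters of their symbol, with 10 or more members each. In the median family of 179, 79.2% of members reached 1 CPM. In 23 families every member did, among them the 20 ATG genes of autophagy, the 19 PEX genes that build peroxisomes, the 15 SEC genes of secretion and the 14 aldehyde dehydrogenases. Families with the lowest shares were SCRL with 1 of 27, LCR with 5 of 81, the cation exchangers CHX with 4 of 28 and the peptide hormones RALFL with 6 of 32. Transcription factor families lay between, with 66 of 121 MYB, 47 of 79 NAC, 46 of 67 WRKY and 20 of 31 bZIP genes at 1 CPM or more. A shared stem can join unrelated genes, as with PIP, which covers aquaporins and phosphoinositide kinases, and TIC, which covers plastid import proteins and a clock gene.

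**Figure D4:**
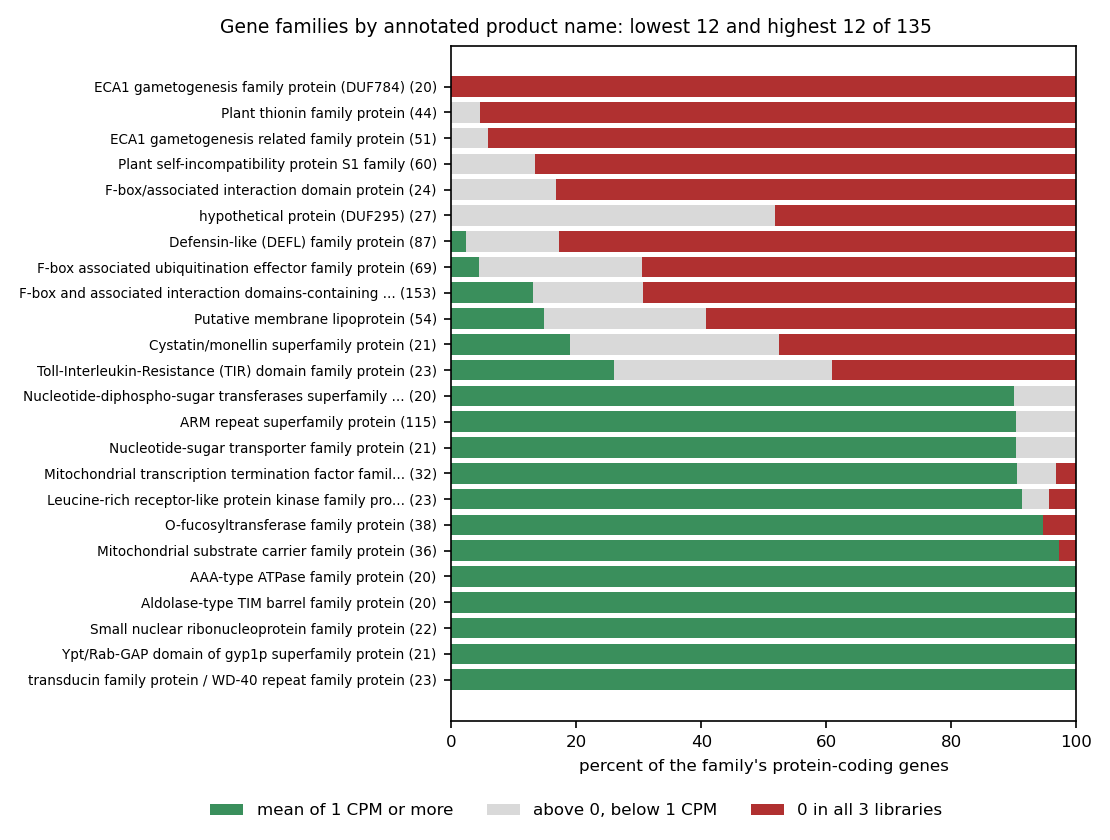
Percent of each family's protein-coding genes at a mean of 1 CPM or more (green), above 0 but below 1 CPM (grey) and at 0 in all 3 Col-0 libraries (red), for families by annotated product name, with member numbers in parentheses. Of 135 such families, 6 had no member at 1 CPM or more, the top 6 bars, and 5 had all members there, the bottom 5 bars.

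Silent genes also stood in runs along the chromosomes. The longest run of neighbouring protein-coding genes with no read in any library held 32 genes at chr5:14320578-14417288, of which 28 are named as ECA1 relatives. A run of 24 at chr1:12763902-12812569 held 14 thionin genes, and a run of 22 at chr4:11045912-11096521 and a run of 13 at chr3:7736980-7770261 were rich in DUF26 genes. Of 51 genes named ECA1 gametogenesis related, 29 had fewer than 50% unique 50-base words, as did 14 of 44 thionin family genes. How reads that fit several copies were counted is not given, so the lack of reads in such copies is uncertain. Over the whole genome, of 292 genes with fewer than 10% unique 50-base words 169, or 57.9%, had no read, and of 561 genes overlapped over 90% or more of their exons by another gene 439, or 78.3%, had none. Leaving out both kinds, 3703 genes with no read remained. The share with no read was 15.3%, 16.9%, 16.0%, 15.6% and 15.3% on chromosomes 1 to 5.

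Silent genes were shorter and simpler in structure. Median coding length was 591 bases in genes with no read, 849 below 1 CPM, 1056 between 1 and 10 CPM, 1239 between 10 and 100 CPM and 1405.5 between 100 and 1000 CPM. It was 1104 bases in the 84 genes at 1000 CPM or more. Genes with a single exon made 36.3% of those with no read and 8.89% of those between 100 and 1000 CPM. The classes are by CPM, which is not corrected for length, so a shorter gene has fewer counts at equal abundance. The part of this in the order was not tested.

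The 3 libraries agreed closely in rank, with Spearman correlations of 0.993 to 0.995 across the 18792 annotated genes at a mean of 1 CPM or more. Genes with lower levels or no read were left out of these correlations, and genes are not independent replicates. Among 12377 genes at 10 CPM or more, 57 differed by more than 1.5-fold between replicates 1 and 2, 39 between 1 and 3, and 131 between 2 and 3. No gene differed by more than 2-fold between replicates 1 and 2, and 1 gene did in each of the other pairs. The coefficient of variation (CV, SD divided by the mean) had a median of 7.82%, with quartiles of 4.96% and 11.3%, and 315 genes exceeded 20%. The common biological coefficient of variation estimated by edgeR over 19881 genes was 9.77%, and it was 7.69% without replicate 2.

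Genes differed in which library was highest, and this followed transcript length. In replicate 2, the 135 protein-coding genes at 10 CPM or more with exons over 6000 bases stood at a median of 0.32 (log2) above their own mean, and all 135 were highest there. In replicates 1 and 3 the same genes stood at medians of -0.14 and -0.25. The 277 genes with exons of 750 bases or less stood at 0.17 in replicate 1 and at -0.09 in both others. Across 12322 genes, the Spearman correlation of exon length with the log2 deviation was -0.686, 0.728 and -0.232 in replicates 1, 2 and 3. The median CV was 22.1% in genes over 6000 bases and 6.003% in genes of 1501 to 2500 bases.

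**Figure D5:**
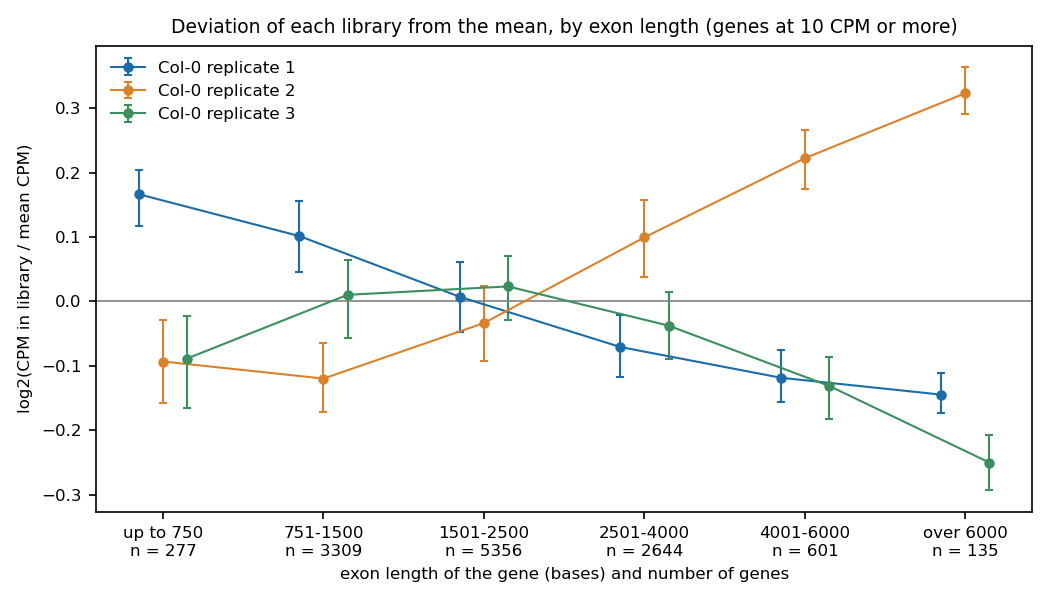
Log2 deviation of a gene's CPM from its own 3-library mean, by exon length class in bases with the number of genes, for each Col-0 replicate, with points at the median and bars over the quartiles. Replicate 2 lies at -0.09 in the shortest class and at 0.32 in the longest, where replicates 1 and 3 lie at -0.14 and -0.25.

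The most variable genes reflected this trend in part. BIG, a very large auxin transport protein, had 530.4, 813 and 440.3 CPM, and SPI, a BEACH-domain protein of epidermal cell shape, had 213, 327 and 188 CPM. The protease gene DEG14 had 39.4, 50.8 and 22.02 CPM, the largest excess of CV over counting error among genes at 10 CPM or more. DEG14 is not a long gene, with 1882 exon bases against a median of 1916 for all genes at that level. Of the 100 most variable genes 49 had exons over 6000 bases, against 136 of all 12377, and 64 were highest in replicate 2, against 32.7% of all.

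A smaller set was highest in replicate 3 and held wall proteins beside other genes, such as the phosphoglycerate mutase family gene AT5G04120 and the iron transporter IRT2. The extensins EXT6, AT4G08400 and AT5G06630 had 86.8, 102 and 154 CPM, 35.05, 44.1 and 68.5 CPM, and 40.03, 44.8 and 71.8 CPM. Only 60%, 43.8% and 67.9% of their 50-base words, in that order, are unique in the genome, so these levels are uncertain. The extensins EXT12 and EXT13, with 100% and 94.8% unique words, had 127, 159 and 225 CPM and 65.8, 82.6 and 114 CPM. The arabinogalactan proteins AGP3 and FLA6 had 54.8, 44.8 and 81.4 CPM and 16.7, 15.8 and 26.8 CPM. In the root list, the wall protein PRP3 had 148, 154 and 230.1 CPM and the expansin EXPA7 had 22.6, 17.8 and 29.3 CPM, both highest in replicate 3. Not every root gene took this order, since CASP1, the highest member of that list, was highest in replicate 1. Of the 31 genes at 10 CPM or more with extensin in the product name 18, or 58.1%, were highest in replicate 3, against 29.3% of all 12322 protein-coding genes at that level. Without the Ole e 1 family the count was 16 of 20. This group was singled out after its values were seen. The root list as a whole, with 16 of 20 genes at 1 CPM or more, summed to 1478, 1361 and 1549.5 CPM, and the part of root tissue in this order was not tested.

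Photosynthesis genes took the opposite order. Of 61 photosystem, antenna and Calvin cycle genes at 10 CPM or more 55, or 90.2%, were highest in replicate 1, against 4682 of all 12322. Of the same 61, 54 were lowest in replicate 3, against 3301 of all 12322. These genes were singled out for library order after their values were seen. Their median deviations were 0.14, -0.02 and -0.14 on the log2 scale in replicates 1, 2 and 3, and their median exon length was 1271 bases against 1918 for all. The antenna list summed to 4845, 4387 and 3937 CPM, and the chlorophyll list to 4822, 4574 and 4230.4 CPM. The part of transcript length in this order was not tested.

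Genes in common use as references differed in how steady they were. UBQ10, a polyubiquitin, had 2056, 2035 and 2070.3 CPM with a CV of 0.871%, steadier than all but 0.840% of the genes at 10 CPM or more. ACT2 had a CV of 1.76% and the phosphatase subunit PP2AA3 had 2.64%. UBQ5, a ubiquitin fused to a ribosomal protein, had 209, 160.3 and 195 CPM with a CV of 13.4%, and GAPC1 had 672, 571 and 680.3 CPM with 9.54%, both above the median gene. The steadiest genes were of moderate level, among them AT5G42560 at 50.2, 50.3 and 50.3 CPM and the ubiquitin protease UBP25 at 58.4, 58.4 and 58.2 CPM. With 3 libraries, a CV this small can arise in some of many genes, and it is given as a description.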

How the data were processed

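The authors deposited whole-number read counts per gene, and the columns of the 3 Col-0 libraries were used. Per the submitters' processing notes, FastQC, Bowtie2, TopHat, HTSeq and DESeq2 were run on TAIR10. Those notes give no versions, strand setting or handling of reads that fit several genes, so overlapping and near-identical genes are uncertain. The features lie on chromosomes 1 to 5. The deposited tables of regulated genes were not used here.

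CPM is the count divided by the column sum, times 1000000. RefSeq's TAIR10.1 annotation gave symbols, product names, coding lengths and neighbours for all 32548 AT identifiers, and its genome gave the printed sequences. Floors of 3 counts cover counting error only. The spread was estimated with edgeR 4.0.16 in R 4.3.3, after TMM scaling and edgeR's filter on low counts, and that step was tested on simulated data. DESeq2 1.42.0 size factors, column sums, no filter, each library left out, levels per exon length and per gene span, a threshold of 10 reads in each library, AT identifiers alone, and leaving out overlapped and repeated genes were alternatives; exon length and repeated genes were added after seeing the data. Tables used Python 3.11.15, pandas 2.3.3, numpy 2.4.6 and matplotlib 3.10.9.

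Members and lists were chosen with earlier results of these data known. Named were the top 20 genes by CPM and by CPM per kb, up to 4 highest, the lowest and the unread members of each list, the 10 most and 10 least variable genes at 10 CPM or more, and the 10 families at each end of the share at 1 CPM. Others, and the groups by product name, length and library order, were singled out after their values were seen. No test was made, since only 1 group was described. A few genes and families are not reported here.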

Additional observations from a re-analysis of the deposited data

How the results depend on the processing

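No paired analysis was possible because the results come from no test over 1 group. The counts of genes at 1 CPM or more and with no read, the number of genes that hold 50% of the counts and the summed level of each of the 38 lists kept within 1.5 times, or within 1 SD for the sums, under every alternative that applied to them. Leaving out 1 of 3 libraries cannot move the mean of a sum by 1 SD, so for the sums that alternative could not fail. The common biological coefficient of variation was 9.77%, 9.88% with no filter, 9.81% with column sums, 9.77% with DESeq2 size factors, and 7.69% to 11.1% with each library left out. The floral organ list had 2 members at 1 CPM or more and 5 with at least 10 reads in every library. The rank of a list's highest gene moved by over 1.5 times in 20 of 38 lists per coding length, 15 per exon length and 17 per gene span, so ranks from CPM alone depend on length. Depth limits statements on genes under 3 counts, and how reads of near-identical copies were counted is not given.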
